A study of Mus musculus with 15 samples.

Results

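The 9 genes described here are transcription factors of the secretory lineages of the intestine: Atoh1, Gfi1, Spdef, Neurog3, Neurod1, Insm1, Foxa1, Foxa2 and Foxa3. They were chosen by symbol from the 78298 genes listed in the count files, and all 9 passed the filter on low counts and were tested among 17560 genes. PolyA RNA of primary mouse small intestinal organoids, three-dimensional cultures of the epithelium that were grown from crypts of adult female C57BL/6J wild-type mice, gave 15 sequenced libraries from 5 conditions with 3 libraries each. All organoids had been transduced with lentiviral plasmids and selected with antibiotics, and all carried a transgene under the L30 promoter, which is active at a low level in all cell types, followed by an IRES and a resistance gene. Halo-NLS is the control and carries V5-Halo-NLS, the HaloTag with a nuclear localization sequence, with Puro. SOX9-mEGFP_budding and SOX9-Halo_budding carry Sox9 fused to mEGFP-V5 or Halo-V5, with Puro, and had the budding shape of normal organoids. SOX9-mEGFP_spheroid carries the Sox9-mEGFP transgene and a second one for H2B-mScarletI with Neo, SOX9-Halo_spheroid the Sox9-Halo transgene and a second one for H2B-mEGFP with Zeo, and both had turned into round spheroids on longer culture. Each tag is 1 transduced line, several wells were pooled for each library, and the spheroids were at later passages than the budding organoids with the same tag. The shape, the second transgene and the time in culture therefore cannot be told apart in any comparison of spheroid with budding organoids. Every SOX9 condition differs from Halo-NLS in its transgene and its transduced line. By the study's order of passages, each differs from Halo-NLS in time in culture too. The spheroids add their shape and second transgene, and none of these can be told apart in comparisons with Halo-NLS. The spheroids of the 2 lines differ in their second transgene and, as the study orders its samples by passage, in time in culture, and neither can be told apart from the tag.

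Cells of the intestinal crypt that escape Notch signaling switch on Atoh1, a basic helix-loop-helix (bHLH) factor needed for all secretory cells except part of the tuft cells. Below it, Gfi1 and Spdef act in goblet and Paneth cells, which make mucus and antimicrobial proteins, while Neurog3 starts the enteroendocrine, hormone-producing branch, in which Neurod1 and Insm1 act next. Foxa1, Foxa2 and Foxa3 are forkhead factors that can open closed chromatin, and Foxa1 and Foxa2 are known to act in goblet and enteroendocrine differentiation. SOX9, the factor that the transgenes carry, is made in crypt base and Paneth cells.

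Between 28062722 and 40559766 reads per library were counted on genes, with a median of 33491297. Values are given as normalized counts, that is counts scaled to a common effective library size of 33558581 reads with TMM factors, which correct for differences in composition. A gene was called when edgeR's quasi-likelihood test gave a Benjamini-Hochberg adjusted p of at most 0.01 over all tested genes, the fold change reached 2 and the normalized counts averaged 10 or more. Sox9 reads, in which transgene and endogenous transcripts cannot be separated, numbered 305.5 to 768.8 normalized counts in the 3 Halo-NLS libraries and 1335.8 to 23654.0 in the 12 SOX9 libraries. Replicate 1 of SOX9-Halo_budding stood apart with 1335.8, beside 10537.8 and 6838.0 in the other two libraries of that condition. Replicate 3 of Halo-NLS had counts on 40375 genes, against 24214 to 34646 in the others. Each comparison with Halo-NLS uses the same 3 control libraries. The epithelial markers Epcam, Cdh1 and Krt8 were high in every library (lowest value of Epcam, 14769.8 normalized counts). In SOX9-Halo_spheroid, though, Epcam and 2 further epithelial markers, Vil1 and Cldn7, were called lower than in Halo-NLS (Vil1, means of 47366.1 and 3954.6 in Halo-NLS and SOX9-Halo_spheroid). The summed level of 13 markers of blood, connective tissue, vessel and nerve cells was between 3.09 and 10.4 CPM (counts per 1000000 reads of the effective library size).

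The bases just before the start of 4 members are shown as examples of some of the patterns found. They are Atoh1, which was nearly absent from SOX9-Halo_spheroid alone, Neurog3 and Insm1, which were low in both spheroid conditions, and Foxa1, which lay above Halo-NLS in all 6 spheroid libraries. Each is the 250 bases before the canonical transcript start in GRCm39, the build of the counts, read in the direction of the gene, with annotation from GENCODE M39. The window is chr6:64705859-64706108 on the plus strand for Atoh1, chr10:61968612-61968861 on the plus strand for Neurog3, chr2:146063591-146063840 on the plus strand for Insm1 and chr12:57592945-57593194 on the minus strand for Foxa1. Capitals mark matches, on either strand, to CANNTG (the E-box that bHLH factors bind), CAGCTG (a form of it), ACAAAG or ACAATG (core motifs of SOX factors) and TGTTTAC (a forkhead motif).
Atoh1: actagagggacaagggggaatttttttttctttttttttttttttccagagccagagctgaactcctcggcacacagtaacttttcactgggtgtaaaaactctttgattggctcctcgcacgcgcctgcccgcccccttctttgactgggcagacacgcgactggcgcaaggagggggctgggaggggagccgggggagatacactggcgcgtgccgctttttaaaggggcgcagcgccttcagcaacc
Neurog3: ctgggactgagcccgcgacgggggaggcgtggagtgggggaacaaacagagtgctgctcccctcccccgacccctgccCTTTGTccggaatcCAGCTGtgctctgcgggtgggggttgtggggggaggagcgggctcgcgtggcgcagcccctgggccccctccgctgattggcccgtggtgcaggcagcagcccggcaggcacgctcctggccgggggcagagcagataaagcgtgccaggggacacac
Insm1: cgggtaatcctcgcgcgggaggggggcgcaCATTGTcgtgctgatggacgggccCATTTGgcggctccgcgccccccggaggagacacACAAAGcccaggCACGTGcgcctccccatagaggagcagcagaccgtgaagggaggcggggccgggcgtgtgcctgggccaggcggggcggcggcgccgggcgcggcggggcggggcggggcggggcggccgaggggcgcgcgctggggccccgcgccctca
Foxa1: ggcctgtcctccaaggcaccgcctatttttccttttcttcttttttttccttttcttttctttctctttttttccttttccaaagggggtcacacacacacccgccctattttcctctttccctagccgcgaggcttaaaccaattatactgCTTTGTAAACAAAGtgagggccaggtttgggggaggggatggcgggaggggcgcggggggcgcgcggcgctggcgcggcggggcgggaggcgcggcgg
Among 21723 promoters of protein-coding genes with a window of the same length, CANNTG was found in 64.8%, CAGCTG in 11.9%, ACAAAG in 15.9%, ACAATG in 9.42% and TGTTTAC in 2.71%. The Atoh1 window holds none of the 5 motifs, and neither does that of Spdef. The Neurog3 window holds 1 E-box, which has the form CAGCTG and is counted under both, and 1 ACAAAG. The Insm1 window holds 2 E-boxes, 1 ACAAAG and 1 ACAATG. In the Foxa1 window, 2 matches to ACAAAG, 1 on each strand, overlap 1 match to TGTTTAC, and there is no E-box. The windows of Gfi1, Foxa2 and Foxa3 hold 1 E-box each and no other motif, and that of Neurod1, which overlaps an annotated exon, holds 3 E-boxes and 1 ACAAAG. A match describes these letters only.

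Atoh1 (ENSMUSG00000073043, chromosome 6, 64706109 to 64708229, plus strand) was near the control level in the spheroids of the SOX9-mEGFP line and nearly absent from those of the SOX9-Halo line. It had 224.8, 251.3 and 204.9 normalized counts in the Halo-NLS libraries, 618.3, 554.5 and 563.7 in SOX9-mEGFP_budding and 424.8, 541.0 and 260.5 in SOX9-Halo_budding. The SOX9-mEGFP_spheroid libraries had 334.6, 244.3 and 340.0, and the SOX9-Halo_spheroid libraries held 1, 1 and 0 reads of Atoh1 in all. Both budding conditions were thus above Halo-NLS without overlap, the SOX9-mEGFP spheroids overlapped with Halo-NLS, and the SOX9-Halo spheroids lay far below all others. In SOX9-mEGFP_budding Atoh1 was 2.55-fold the Halo-NLS level (log2 fold change 1.35 ± 0.29, SE), and with an adjusted p of 0.0102 it missed the threshold by little. In SOX9-Halo_budding it was 1.80-fold (log2 0.85 ± 0.29, adjusted p = 0.0507). In SOX9-mEGFP_spheroid the log2 fold change against Halo-NLS was 0.43 ± 0.29 (adjusted p = 0.219) and that against SOX9-mEGFP_budding was -0.92 ± 0.28 (adjusted p = 0.0242), so neither difference passed. In SOX9-Halo_spheroid, Atoh1 fell against Halo-NLS (adjusted p = 9.4e-09), against SOX9-Halo_budding (adjusted p = 5.1e-09) and against SOX9-mEGFP_spheroid (adjusted p = 2.0e-08). With 2 reads in the 3 libraries, the ratio of SOX9-mEGFP_spheroid over SOX9-Halo_spheroid was 463.9, with an exact 95% interval from 128.1 to 3835.6, and that of Halo-NLS was 343.1 (94.5 to 2839.8). These intervals, and those below, cover counting error only. In bulk RNA, fewer cells of a type and less RNA in each cell cannot be told apart.

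Gfi1 (ENSMUSG00000029275, chromosome 5, 107864523 to 107873902, minus strand), a zinc finger repressor that holds back enteroendocrine genes in goblet and Paneth cells, was lowest in the SOX9-mEGFP spheroids. Its normalized counts were 37.9, 86.1 and 111.9 in Halo-NLS, 114.2, 89.3 and 171.3 in SOX9-mEGFP_budding and 105.0, 119.7 and 99.5 in SOX9-Halo_budding. They were 26.6, 18 and 34.3 in SOX9-mEGFP_spheroid and 43.8, 52 and 45.9 in SOX9-Halo_spheroid. All 6 spheroid libraries lay below all 6 SOX9 budding libraries, and only the SOX9-mEGFP spheroids lay below the lowest Halo-NLS library. Gfi1 fell in SOX9-mEGFP_spheroid against its budding counterpart (log2 -2.24 ± 0.38, adjusted p = 0.000382) and against Halo-NLS (log2 -1.57 ± 0.38, adjusted p = 0.00357). The call against Halo-NLS was lost without replicate 2 of Halo-NLS (log2 -1.49, adjusted p = 0.012), without its replicate 3 (-1.24, 0.0211), and without replicate 1 (-1.59, 0.0127) or 2 (-1.38, 0.0203) of SOX9-mEGFP_spheroid. In SOX9-Halo_spheroid the difference from SOX9-Halo_budding was -1.19 ± 0.37 (adjusted p = 0.0166), and it passed when the replicate number was kept as a block within that line (log2 -1.23, adjusted p = 0.00748). Against Halo-NLS it was -0.73 ± 0.37 (adjusted p = 0.114). Of the 3187 exonic bases of Gfi1, 327 are shared with A430072P03Rik, and reads there were not counted for either gene.

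Spdef (ENSMUSG00000024215, chromosome 17, 27933326 to 27947929, minus strand), an ETS factor for the maturation of goblet and Paneth cells, stood at 652.2, 838.8 and 960.3 normalized counts in Halo-NLS. It had 1192.9, 1106.9 and 1252.1 in SOX9-mEGFP_budding and 915.7, 1193.9 and 543.4 in SOX9-Halo_budding. In the spheroids it had 569.7, 302.4 and 374.3 with the mEGFP tag and 109.0, 152.3 and 142.2 with the Halo tag. The SOX9-Halo spheroids were thus the lowest, the SOX9-mEGFP spheroids came next, and neither overlapped with Halo-NLS. Spdef fell in SOX9-Halo_spheroid against Halo-NLS (log2 -2.60 ± 0.31, adjusted p = 7.1e-06), against SOX9-Halo_budding (-2.71 ± 0.31, adjusted p = 5.1e-06) and against SOX9-mEGFP_spheroid (-1.62 ± 0.30, adjusted p = 0.000966). In the spheroids with the mEGFP tag it fell by 1.51 ± 0.30 against the budding organoids (adjusted p = 0.00124), while the difference from Halo-NLS was -0.98 ± 0.29 (adjusted p = 0.0133) and did not pass. It passed without replicate 1 of Halo-NLS (log2 -1.11, adjusted p = 0.00871) or without replicate 1 of SOX9-mEGFP_spheroid (log2 -1.28, adjusted p = 0.00536), and with DESeq2 (log2 -1.01, adjusted p = 0.0056).

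The 3 factors of the enteroendocrine branch were low in both spheroid conditions. Neurog3 (ENSMUSG00000044312, chromosome 10, 61968862 to 61970766, plus strand), the bHLH factor that starts this branch, had 390.8, 515.2 and 1176.6 normalized counts in Halo-NLS. It had 142.1, 205.6 and 417.4 in SOX9-mEGFP_budding and 367.6, 447.6 and 464.4 in SOX9-Halo_budding. The spheroid libraries held 25, 20 and 9 reads with the mEGFP tag (22.2, 20 and 8.57 normalized counts) and 0, 0 and 1 read with the Halo tag. There was no overlap between spheroid and budding libraries, nor between the spheroids of the 2 lines. In SOX9-mEGFP_spheroid Neurog3 fell against Halo-NLS (log2 -5.35 ± 0.56, adjusted p = 3.1e-06) and fell by 3.91 ± 0.53 against its budding counterpart (adjusted p = 5.7e-05). In SOX9-Halo_spheroid it fell further: Halo-NLS had 2085.6 times its level (373.8 to 82426, adjusted p = 1.2e-07) and SOX9-mEGFP_spheroid 51.2 times (8.81 to 2060.2, adjusted p = 0.00101). Among the budding conditions, the difference of SOX9-mEGFP_budding from Halo-NLS was -1.44 ± 0.46 (adjusted p = 0.0483) with overlapping libraries. Of 1905 exonic bases, 797 are shared with Fam241b, so that reads from a large part of Neurog3 went uncounted in all libraries alike.

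Neurod1 (ENSMUSG00000034701, chromosome 2, 79282865 to 79287294, minus strand), a bHLH factor of maturing enteroendocrine cells, had the lowest counts of the 3. Its normalized counts were 88.9, 23 and 33.9 in Halo-NLS, 142.1, 68.5 and 159.6 in SOX9-mEGFP_budding and 144.8, 111.9 and 130.7 in SOX9-Halo_budding. The SOX9-mEGFP spheroids held 4, 1 and 0 reads and the SOX9-Halo spheroids 1, 0 and 0. Both spheroid conditions were below all other libraries, and they overlapped with each other. Halo-NLS had 30 times the level of SOX9-mEGFP_spheroid (12.5 to 94.2, adjusted p = 0.000121) and 142.4 times that of SOX9-Halo_spheroid (25.1 to 5673.9, adjusted p = 3.2e-05). Against the budding organoids of the same line the ratios were 80.3 (34.1 to 248.6, adjusted p = 1.7e-05) for the mEGFP tag and 392.3 (70 to 15528.8, adjusted p = 3.3e-06) for the Halo tag. In the budding conditions Neurod1 was 2.55-fold (SOX9-mEGFP, adjusted p = 0.083) and 2.67-fold (SOX9-Halo, adjusted p = 0.0654) the Halo-NLS level. Both differences passed without replicate 1 of Halo-NLS, which had the highest value of the 3 (log2 2.12, adjusted p = 0.00895, and 2.19, adjusted p = 0.00736). Here 416 of 3040 exonic bases are shared with Cerkl and Gm54165.

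Insm1 (ENSMUSG00000068154, chromosome 2, 146063841 to 146066940, plus strand), a zinc finger factor of endocrine progenitors, had 486.2, 616.2 and 724.0 normalized counts in Halo-NLS. It had 441.0, 469.4 and 786.4 in SOX9-mEGFP_budding and 292.8, 967.2 and 636.1 in SOX9-Halo_budding. The SOX9-mEGFP spheroids had 39, 23 and 34.3 normalized counts, and the SOX9-Halo spheroids held 0, 0 and 1 read. The budding libraries spread around the control values, and the 2 spheroid conditions lay below them in 2 separate steps. In SOX9-mEGFP_spheroid Insm1 fell against Halo-NLS (log2 -4.24 ± 0.45, adjusted p = 3.5e-06) and fell by 4.13 ± 0.45 against its budding counterpart (adjusted p = 7.0e-06). For SOX9-Halo_spheroid, the ratio was 1839.2 for Halo-NLS (329.6 to 72691.4, adjusted p = 3.3e-08), 1833.0 for SOX9-Halo_budding (328.6 to 72433.5, adjusted p = 3.9e-08) and 97.7 for SOX9-mEGFP_spheroid (17.2 to 3896.1, adjusted p = 3.9e-05).

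**Figure D1:**
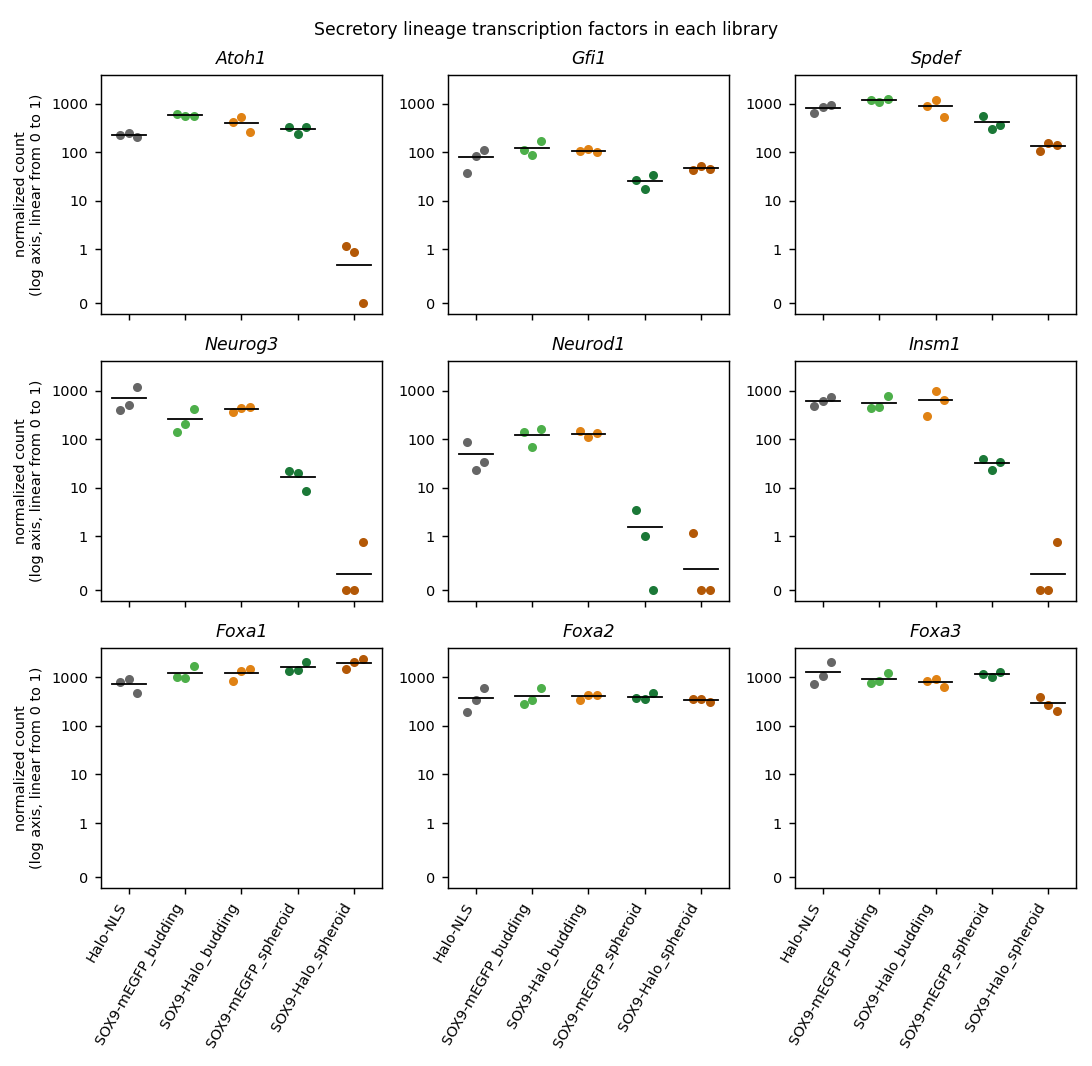
Normalized counts (y axis, logarithmic above 1 and linear below) of the 9 transcription factors in each of the 15 libraries, grouped by condition (x axis), with 1 point per library and a line at the mean of 3. Neurog3, Neurod1 and Insm1 drop in both spheroid conditions, Atoh1 drops to 2 reads in 3 libraries in SOX9-Halo_spheroid, and Foxa2 stays between 192.1 and 594.9 in all 15.

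The 3 forkhead factors each had a course of their own. Foxa1 (ENSMUSG00000035451, chromosome 12, 57587414 to 57593702, minus strand) had 818.2, 932.9 and 467.6 normalized counts in Halo-NLS. It had 1027.7, 991.7 and 1745.7 in SOX9-mEGFP_budding and 822.6, 1335.0 and 1494.6 in SOX9-Halo_budding. The spheroids had 1382.7, 1400.9 and 2038.2 with the mEGFP tag and 1477.1, 2076.3 and 2418.1 with the Halo tag. All 6 spheroid libraries were above the 3 of Halo-NLS, while both spheroid conditions overlapped with their budding counterparts. Foxa1 rose in SOX9-Halo_spheroid against Halo-NLS (log2 1.43 ± 0.33, adjusted p = 0.00216), a call that was lost without replicate 3 of Halo-NLS (log2 1.19, adjusted p = 0.0109) or replicate 3 of SOX9-Halo_spheroid (log2 1.24, adjusted p = 0.0134). In SOX9-mEGFP_spheroid the same difference was 1.12 ± 0.32 (adjusted p = 0.0105), just short of the threshold. It passed with a replicate block over all libraries (1.06, adjusted p = 0.00968), with library sizes alone (1.38, 0.0059), with no low-count filter (1.16, 0.000746) and with DESeq2 (1.08, 0.00634). Against the budding organoids of the same line the differences were 0.36 ± 0.32 (adjusted p = 0.482) and 0.71 ± 0.32 (adjusted p = 0.0928).

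Foxa2 (ENSMUSG00000037025, chromosome 2, 147884797 to 147889005, minus strand) was called in none of the 8 comparisons between conditions, by edgeR or by DESeq2, and its unadjusted p was at least 0.504 in each. It had 192.1, 346.5 and 589.5 normalized counts in Halo-NLS, and the means of the other conditions ranged from 342.2 ± 28.3 in SOX9-Halo_spheroid to 407.9 ± 163.9 in SOX9-mEGFP_budding (SD, n = 3). The Halo-NLS libraries alone spanned nearly the whole range of the 15. The standard error of the log2 fold change was 0.35 in each comparison, so that small differences could have been missed.

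Foxa3 (ENSMUSG00000040891, chromosome 7, 18747209 to 18757471, minus strand) was low in SOX9-Halo_spheroid. Its normalized counts were 718.8, 1051.1 and 2035.1 in Halo-NLS, 752.0, 856.7 and 1215.5 in SOX9-mEGFP_budding and 826.6, 922.4 and 641.9 in SOX9-Halo_budding. They were 1197.2, 1024.4 and 1301.0 in SOX9-mEGFP_spheroid and 398.0, 275.3 and 202.6 in SOX9-Halo_spheroid. Only the SOX9-Halo spheroids lay outside the range of the other 12 libraries. Foxa3 fell there against Halo-NLS (log2 -2.12 ± 0.36, adjusted p = 0.000185), against SOX9-mEGFP_spheroid (-2.01 ± 0.36, adjusted p = 0.000649) and against SOX9-Halo_budding (-1.45 ± 0.35, adjusted p = 0.00364). The last call was lost without SOX9-Halo_budding replicate 1 (log2 -1.43, adjusted p = 0.0111) or 2 (-1.33, 0.0125) and without SOX9-Halo_spheroid replicate 2 (-1.46, 0.014) or 3 (-1.30, 0.0177).

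Levels of different genes were compared per length, as CPM per kilobase of exon (mean ± SD, n = 3). In Halo-NLS the order was led by Foxa3 (18.5 ± 9.97), Neurog3 (10.9 ± 6.61) and Spdef (10.6 ± 2.01), whose libraries overlapped. Foxa1 (6.55 ± 2.15), Insm1 (5.85 ± 1.14), Foxa2 (3.30 ± 1.76) and Atoh1 (3.19 ± 0.327) followed, each overlapping with the next. Gfi1 (0.735 ± 0.351) and Neurod1 (0.476 ± 0.346) were lowest and overlapped with each other, not with Atoh1. With the bases shared with other genes left out of the length, the mean of Neurog3 was 18.7 and the order of the first 2 changed. In SOX9-Halo_spheroid Foxa1 stood first (17.6 ± 4.22), apart from Foxa3 (4.25 ± 1.44) and Foxa2 (3.00 ± 0.248), which overlapped. Spdef (1.74 ± 0.293) and Gfi1 (0.442 ± 0.0398) came next without overlap, and Atoh1, Neurog3, Neurod1 and Insm1, at 0.00998 or less, could not be told from each other. In SOX9-mEGFP_spheroid, Foxa3 (17.1 ± 2.04) and Foxa1 (14.2 ± 3.31) overlapped at the top. Spdef (5.37 ± 1.79), Atoh1 (4.30 ± 0.755) and Foxa2 (3.52 ± 0.602) formed a middle group there, with Insm1, Neurog3 and Gfi1 between 0.246 and 0.309 and Neurod1 at 0.0149.

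**Figure D2:**
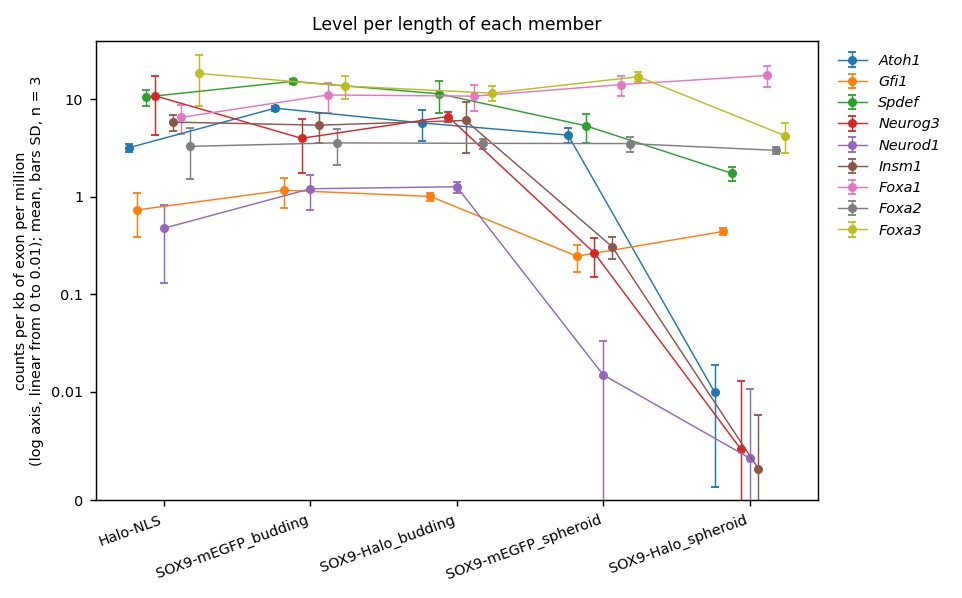
Mean level of each member per length (y axis, CPM per kilobase of exon, logarithmic above 0.01 and linear below) in the 5 conditions (x axis), with bars for the SD of 3 libraries, cut at 0. Lines only join the points of a gene. From Halo-NLS to SOX9-Halo_spheroid, Foxa1 goes from 6.55 to 17.6 while Insm1 goes from 5.85 to 0.00288.

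Counted over the 9 members, the budding conditions yielded no call against Halo-NLS. In SOX9-mEGFP_budding edgeR called 0 of 9 (2.76% of all tested genes were called), with 4 members at an unadjusted p under 0.05 and 1, Atoh1, called by DESeq2. The libraries of 3 members did not overlap (32.5% of all tested genes). In SOX9-Halo_budding edgeR and DESeq2 both called 0 of 9 (3.75% of all tested genes in edgeR), with 3 members at an unadjusted p under 0.05 and 2 without overlap (29.7%). Without replicate 1 of Halo-NLS, 2 members (Atoh1 and Neurod1) were called in SOX9-mEGFP_budding and 1 (Neurod1) in SOX9-Halo_budding. Between the 2 budding conditions 0 members were called by either tool (0.456% of all tested genes in edgeR), 0 were at an unadjusted p under 0.05, 1 did not overlap (12%), and the log2 differences lay between -0.50 ± 0.28 for Atoh1 and 0.74 ± 0.45 for Neurog3.

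In the spheroids the calls were nearly all downward. In SOX9-mEGFP_spheroid 4 members (Gfi1, Neurog3, Neurod1 and Insm1) were lower than in Halo-NLS, where 12.1% of all tested genes were lower, and the median log2 fold change was -0.98 over the members and 0.03 over all genes. In either direction 27.5% of all tested genes were called there. In SOX9-Halo_spheroid 6 members (Atoh1, Spdef, Neurog3, Neurod1, Insm1 and Foxa3) were lower, against 15.3% of all tested genes, and 1 (Foxa1) was higher, against 13.6%, with medians of -2.60 and -0.01. In either direction 28.9% were called. Without replicate 3 of Halo-NLS the counts were 3 and 6 members called. Within the lines, 5 members (Gfi1, Spdef, Neurog3, Neurod1 and Insm1) were lower in SOX9-mEGFP_spheroid than in SOX9-mEGFP_budding, beside 7.88% of all tested genes (16.4% in either direction). In SOX9-Halo_spheroid 6 (Atoh1, Spdef, Neurog3, Neurod1, Insm1 and Foxa3) were lower than in SOX9-Halo_budding, beside 14.7% (25.3% in either direction). Without SOX9-Halo_budding replicate 1, the library with little Sox9, this was 5, Foxa3 being lost. The same held without SOX9-Halo_budding replicate 2 and without SOX9-Halo_spheroid replicate 2 or 3. With the replicate number as a block within the line it was 7, Gfi1 being added. Between the spheroids, 5 members (Atoh1, Spdef, Neurog3, Insm1 and Foxa3) were lower with the Halo tag, beside 9.58% of all tested genes (13.2% in either direction). Libraries without overlap were found for 6 members in SOX9-mEGFP_spheroid and 7 in SOX9-Halo_spheroid against Halo-NLS, where 56.5% and 54.8% of all tested genes showed this. They were found for 6 and 7 members against the budding organoids of the same line (46% and 52.8% of all tested genes) and for 6 between the spheroids (48.6%), so that lack of overlap was common in these comparisons.

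**Figure D3:**
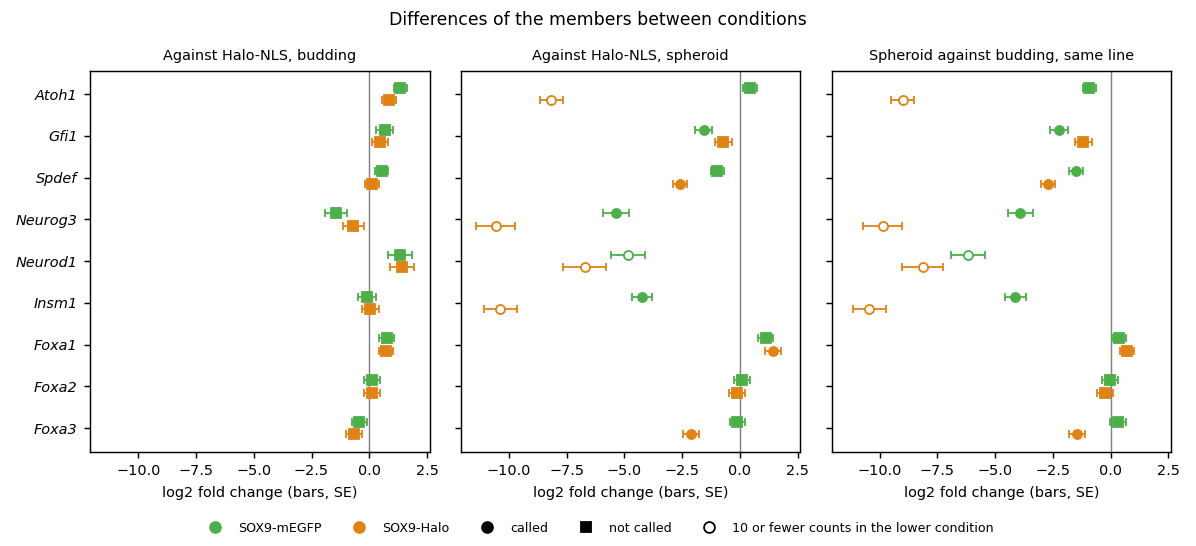
Log2 fold changes (x axis) of the 9 members (y axis) for SOX9-mEGFP and SOX9-Halo, with bars for the standard error, for budding organoids against Halo-NLS (left), spheroids against Halo-NLS (middle) and spheroids against budding organoids of the same line (right). Circles are calls and squares are not. Open symbols have 10 or fewer reads in the lower condition, so that the fitted value depends on edgeR's default prior count and its bar can understate the error. No circle is in the left panel, and Atoh1 is near 0 for SOX9-mEGFP and at -8.16 for SOX9-Halo in the middle one.

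Whether the 2 lines differed in their change from budding organoid to spheroid was tested as an interaction. They did for 3 members, Atoh1, Neurog3 and Insm1, which all fell more in the SOX9-Halo line. Of all tested genes, 5.58% had a called difference of the same sign, whether or not they fell, and 7.39% one of either sign. For Atoh1 the fitted difference of the 2 log2 changes was -8.09 ± 0.58 (adjusted p = 4.8e-07), for Neurog3 -5.97 ± 1.10 (adjusted p = 0.00171) and for Insm1 -6.31 ± 0.92 (adjusted p = 0.00026). These sizes rest on 2, 1 and 1 reads in the SOX9-Halo spheroids and depend on edgeR's default prior count, and the standard errors understate their uncertainty. For Foxa3 the difference was -1.77 ± 0.49 (adjusted p = 0.0261) and for Spdef -1.20 ± 0.42 (adjusted p = 0.0748), and for Gfi1 it had the opposite sign, 1.05 ± 0.52 (adjusted p = 0.238), so none of them passed. Foxa3 passed with no low-count filter (-1.76, adjusted p = 0.00119), with only the conditions compared (-1.76, 0.00549) and with DESeq2 (-1.76, 0.00689).

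Other regulators of secretory fate were followed in a list of 32 genes, of which 29 were tested. In SOX9-mEGFP_spheroid 15 were lower and 4 higher than in Halo-NLS, with a median log2 fold change of -1.34, and in SOX9-Halo_spheroid 19 were lower and 1 higher. The median there was -4.25, or -2.94 with the 12 genes that had 3 or fewer reads in each library of a condition set to that limit. In all, 17 of the 32 were called in both, of which 15 were lower in both, 1 (Tcf12) was higher in both and 1 (Id3) was higher in SOX9-mEGFP_spheroid (log2 2.31) and lower in SOX9-Halo_spheroid (-4.34). Of the genes that act with or after Neurog3, Nkx2-2, Pax4, Rfx6 and Neurod2 had no read in any SOX9-Halo_spheroid library, which allows up to 3 reads in each, and 6, 3, 5 and 10 reads in all in SOX9-mEGFP_spheroid. Halo-NLS had 352 reads of Nkx2-2, 184 of Pax4, 181 of Rfx6 and 252 of Neurod2. Fev, a factor of serotonin-making enteroendocrine cells, went from 961 reads in Halo-NLS to 3 in SOX9-mEGFP_spheroid and 2 in SOX9-Halo_spheroid, and Mnx1 from 770 to 1 and 1. Each of the 6 fell against Halo-NLS in both spheroid conditions (largest adjusted p 9.0e-05).

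Among the most abundant regulators on that list, Hnf4a, a nuclear receptor of enterocytes and secretory cells, fell from 39402.1 ± 10232.6 normalized counts in Halo-NLS to 15350.0 ± 2777.1 in SOX9-mEGFP_spheroid (log2 -1.36 ± 0.24, adjusted p = 0.000367) and 1611.0 ± 354.2 in SOX9-Halo_spheroid (-4.61 ± 0.28, adjusted p = 9.2e-09). Hes6, which antagonizes Hes1, fell by 1.15 ± 0.22 (adjusted p = 0.000699) and 2.15 ± 0.23 (adjusted p = 2.1e-06) on the log2 scale. Tcf3, which encodes the E proteins that pair with Atoh1 and Neurog3, fell by 1.34 ± 0.24 (adjusted p = 0.000361) and 1.19 ± 0.24 (adjusted p = 0.000713). Xbp1, needed for the secretory apparatus of Paneth and goblet cells, was at 13880.2 ± 1606.3 in Halo-NLS, 17335.3 ± 1393.0 in SOX9-mEGFP_spheroid and 9373.2 ± 2273.3 in SOX9-Halo_spheroid, and neither difference was called (log2 0.32 ± 0.22, adjusted p = 0.248, and -0.57 ± 0.23, under the fold change required). Sox4 was at 1146.4 ± 470.3, 1687.4 ± 108.5 and 646.6 ± 9.78, again with no call in these 2 comparisons. In budding organoids it had 4191.9 ± 3224.4 with the mEGFP tag (log2 1.87 ± 0.41 against Halo-NLS, adjusted p = 0.0122). With the Halo tag it had 4723.9 ± 566.1 and was called higher than in Halo-NLS (2.04 ± 0.42, adjusted p = 0.00708).

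Of 10 genes for Notch ligands, receptors and targets, 8 were tested. In SOX9-mEGFP_spheroid 3 fell against Halo-NLS, the ligand genes Dll1 (log2 -4.18) and Dll4 (-3.51) and the target Nrarp (-1.58), beside 12.1% of all tested genes. In SOX9-Halo_spheroid Dll1 (-1.42) and Dll4 (-6.77) fell, beside 15.3% of all tested genes, and the receptor gene Notch2 rose (2.29), beside 13.6%. Over the other settings the counts in SOX9-Halo_spheroid ranged from 1 to 4 lower and from 0 to 2 higher. Hes1, the Notch target that represses Atoh1, had 3037.6 ± 903.0 normalized counts in Halo-NLS, 1638.9 ± 70.7 in SOX9-mEGFP_spheroid and 1585.7 ± 128.6 in SOX9-Halo_spheroid. Its log2 differences from Halo-NLS, -0.89 ± 0.22 (adjusted p = 0.00407) and -0.94 ± 0.22 (adjusted p = 0.00264), were below the fold change required for a call. The ligand gene Jag2 had 2724.8 ± 736.2, 4517.0 ± 1009.8 and 3550.7 ± 746.6 in the same 3 conditions and was called in neither comparison with Halo-NLS.

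The products of the secretory cells were set beside the factors. The summed level of 14 goblet cell products was 2509.8 to 8414.3 CPM in the Halo-NLS libraries, 2669.2 to 3857.9 in SOX9-mEGFP_spheroid and 27.5 to 32 in SOX9-Halo_spheroid. Of the 13 tested, 2 (Tpsg1 and Klk1) were lower and 1 (Sytl2) higher than in Halo-NLS in SOX9-mEGFP_spheroid (median log2 -0.43). In SOX9-Halo_spheroid 12 were lower (median -9.48, or -7.44 with low genes at their limit). Of all tested genes, 12.1% were lower in SOX9-mEGFP_spheroid (27.5% called in either direction) and 15.3% lower in SOX9-Halo_spheroid. Tff3, a secreted trefoil peptide, had 29044.6 ± 3133.7 normalized counts in Halo-NLS, 21582.4 ± 1529.8 in SOX9-mEGFP_spheroid (log2 -0.43 ± 0.41, adjusted p = 0.398) and 26.4 ± 10.1 in SOX9-Halo_spheroid (-10.11 ± 0.62, adjusted p = 1.0e-08). Fcgbp, a mucus protein, had 107490.8 ± 91264.6, 59314.4 ± 24408.5 (adjusted p = 0.294) and 617.9 ± 123.3 (adjusted p = 5.8e-06). Most goblet products thus passed no test against Halo-NLS in the SOX9-mEGFP spheroids and fell in the SOX9-Halo spheroids. Of the members, Atoh1, Spdef and Foxa3 had the same calls against Halo-NLS. Gfi1 had the reverse, with a call in the SOX9-mEGFP spheroids only, and Neurog3, Neurod1 and Insm1 fell in both. The missing calls do not show that levels were kept. Against SOX9-mEGFP_budding, 4 of the 13 were lower and 0 higher in SOX9-mEGFP_spheroid (median log2 -1.02), beside 7.88% of all tested genes lower.

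Paneth cell products summed to 1537.2 to 1984.7 CPM in Halo-NLS, 1119.4 to 1358.5 in SOX9-mEGFP_spheroid and 3.38 to 5.93 in SOX9-Halo_spheroid, but the sum in the SOX9-mEGFP spheroids was nearly all Mmp7. The other 11 products summed to 12.9 to 31.1 CPM there, against 1523.5 to 1967.7 in Halo-NLS. Mmp7, a matrix metalloproteinase that activates defensins, rose from 466.6 ± 100.4 to 41826.1 ± 4081.7 normalized counts there (log2 6.49 ± 0.30, adjusted p = 3.3e-09) and fell to 14.5 ± 2 in SOX9-Halo_spheroid (-5.01 ± 0.30, adjusted p = 9.3e-09). Of the 10 tested products, 8 were lower and Mmp7 alone higher in SOX9-mEGFP_spheroid, and all 10 were lower in SOX9-Halo_spheroid. In budding organoids the sum of the list was 1296.8 to 2198.0 CPM with the mEGFP tag. With the Halo tag it was 741.4 to 882.6 CPM, below all Halo-NLS libraries. Against Halo-NLS, 3 of the 10 were lower in SOX9-Halo_budding and 1 was higher in SOX9-mEGFP_budding. Of all tested genes, 3.75% and 2.76% were called there in either direction. Lyz1, lysozyme, had 23824.2 ± 3236.0 in Halo-NLS, 464.7 ± 278.7 in SOX9-mEGFP_spheroid (log2 -5.68 ± 0.43, adjusted p = 1.7e-07) and 17 ± 9.52 in SOX9-Halo_spheroid (-10.42 ± 0.54, adjusted p = 2.9e-09).

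Of 19 enteroendocrine cell products, all tested, 16 were lower and 1 higher (Cpe, a carboxypeptidase that processes prohormones) in SOX9-mEGFP_spheroid than in Halo-NLS, and 17 were lower in SOX9-Halo_spheroid. Their sum was 443.4 to 1284.7 CPM in Halo-NLS, 120.9 to 167.6 in SOX9-mEGFP_spheroid and 7.46 to 14.7 in SOX9-Halo_spheroid, and in both spheroid conditions most of it was Cpe. Without Cpe the other 18 products summed to 419.0 to 1254.0, 2.47 to 5.61 and 0.592 to 1.34 CPM. The granule proteins Chga and Chgb had 5643.5 ± 2520.3 and 15767.3 ± 9024.1 normalized counts in Halo-NLS. In SOX9-mEGFP_spheroid they had 14.7 ± 6.28 and 36.7 ± 25.2, and in SOX9-Halo_spheroid 2.1 ± 1.33 and 7.56 ± 2.15, all called against Halo-NLS (largest adjusted p 1.4e-06). These products were low in both spheroid conditions, as were Neurog3, Neurod1 and Insm1.

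Tuft cells arise in part without Atoh1, and of their 12 products 10 were tested. Of these, 2 (Ptgs1 and Il17rb) were higher in SOX9-mEGFP_spheroid and 1 (Ptgs1) was higher in SOX9-Halo_spheroid, where Rgs13 was lower. Of all tested genes, 27.5% were called in either direction in SOX9-mEGFP_spheroid, and 13.6% were higher and 15.3% lower in SOX9-Halo_spheroid. Ptgs1, a cyclooxygenase, had 4.16 ± 2.11 normalized counts in Halo-NLS, 199.1 ± 40.1 in SOX9-mEGFP_spheroid (adjusted p = 2.7e-08) and 3060.3 ± 107.9 in SOX9-Halo_spheroid (adjusted p = 3.4e-10). The summed level of the tuft list was 9.63 to 14.6 CPM in Halo-NLS, 32.7 to 45.8 in SOX9-mEGFP_spheroid and 96.9 to 99.7 in SOX9-Halo_spheroid, but the last rested on Ptgs1. Without it, the other 11 products summed to 9.55 to 14.5, 28 to 38.7 and 5.58 to 9.14 CPM, so that the direction in SOX9-Halo_spheroid turned. Il17rb, the most abundant of these 11 in SOX9-mEGFP_spheroid, rose there from 192.2 ± 32.5 in Halo-NLS to 810.5 ± 72.8 (adjusted p = 4.2e-05). It had 157.3 ± 49.6 in SOX9-Halo_spheroid (adjusted p = 0.412). The median log2 fold change of the 10 tested tuft products against Halo-NLS was negative, -0.40 in SOX9-mEGFP_spheroid and -1.25 in SOX9-Halo_spheroid. Genes outside the secretory lineages fell too, with 9 of 10 enterocyte products lower than in Halo-NLS in each spheroid condition. The absorptive genes Fabp1 and Slc5a1 fell from 96220.9 ± 35042.0 and 61642.2 ± 21646.1 normalized counts to 1322.0 ± 1093.9 and 1760.1 ± 1358.5 in SOX9-mEGFP_spheroid and to 42.3 ± 20.7 and 82.9 ± 18.4 in SOX9-Halo_spheroid. The list of 7 epithelial markers had 1 higher (Krt18) and 0 lower in SOX9-mEGFP_spheroid, and 3 lower (Epcam, Vil1 and Cldn7) and 1 higher (Krt18) in SOX9-Halo_spheroid. Of the 13 markers of other tissues only 5 could be tested, and in both spheroid conditions 1 was lower (Pdgfrb) and 1 higher (Cd68). The part of cell composition in these changes was not tested.

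**Figure D4:**
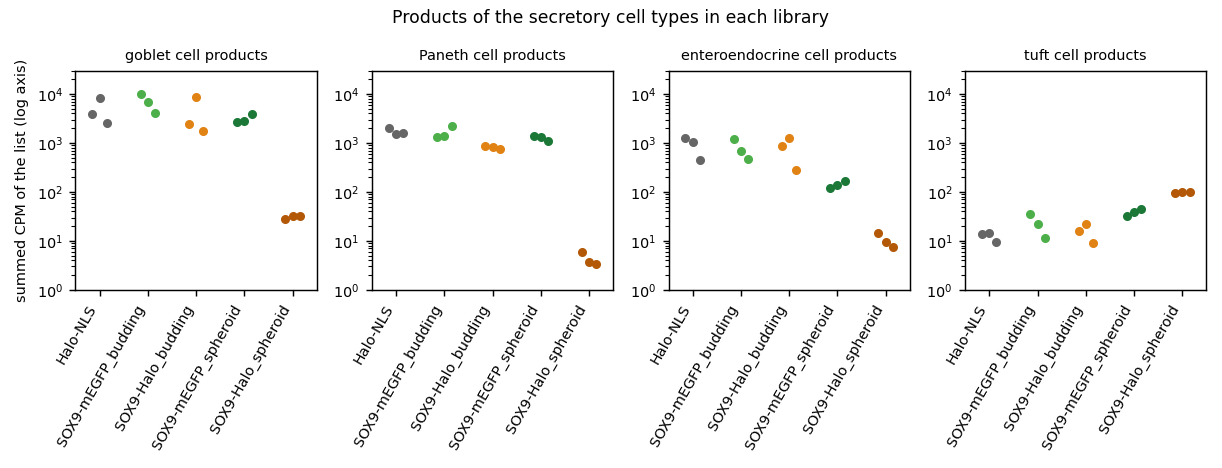
Summed CPM (y axis, logarithmic) of 14 goblet, 12 Paneth, 19 enteroendocrine and 12 tuft cell products in each library, by condition (x axis), with 1 point per library. The SOX9-Halo spheroids lie lowest in the first 3 panels (27.5 to 32 CPM for goblet products) and highest in the fourth (96.9 to 99.7 CPM for tuft products), where they fall to 5.58 to 9.14 CPM, below all Halo-NLS libraries, without Ptgs1.

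Genes whose levels followed each member were sought among tested genes whose normalized counts averaged 50 or more, by Pearson's r of log2 CPM over the 15 libraries. The 3 libraries of a condition are not independent points for such a measure, and no p is given. Atoh1 was followed most closely by Ncald, St6galnac2 and Vangl2 (r = 0.992, 0.991 and 0.99), and Spdef by Tpsg1, Sct and Capn9 (0.975, 0.974 and 0.971). The genes closest to Neurog3 were Sema7a, Agmat and Aldh1b1 (0.987, 0.982 and 0.982), to Neurod1 Rfx6, Gvin-ps1 and Nefm (0.983, 0.983 and 0.981), and to Insm1 Aldh1b1, Papln and Lyz1 (0.989, 0.988 and 0.987). Foxa1 was followed by Naf1, Cobll1 and Thada (0.989, 0.97 and 0.962) and Foxa3 by Tmem176b, Fam83e and Tmed6 (0.939, 0.939 and 0.933). For Gfi1 the closest were Tmem266, Shisa2 and Cacna1a (0.931, 0.919 and 0.911), and for Foxa2 Zfp41, Gpsm1 and Lfng (0.893, 0.801 and 0.8).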

How the data were processed

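Per the labels and the methods of the study, reads of 15 polyA libraries were trimmed with cutadapt 4.5, aligned to GRCm39 (mm39) with STAR keeping unique alignments, and counted on Ensembl genes with HTSeq 2.0.2 in union mode without strand, so that reads on bases shared by overlapping genes were dropped. The annotation release is not given in the sources used here. The deposited count files hold whole, unnormalized counts, and their 5 rows that name no gene were left out (reads on no gene were 1.83 to 6.095% and on more than 1 gene 9.65 to 13.6% of those counted). The table of normalized counts and the 7 tables of the authors' comparisons, which hold fold changes and p-values, were not used. Conditions and replicate numbers came from the sample titles, and 0 columns of values were left over. No 2 replicates held identical values. No source ties replicates to separate animals, and p-values measure the spread between these libraries.

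Counts were fitted with edgeR 4.0.16 (R 4.3.3, quasi-likelihood F test, TMM, filterByExpr by condition, 1 coefficient for each of 5 conditions, no covariate, common biological coefficient of variation 0.302), and p-values were adjusted after Benjamini-Hochberg over 17560 genes. Thresholds follow the study. DESeq2 1.42.0, other scalings, no low-count filter, only the conditions compared, a replicate block, other thresholds and leaving out each library were the alternatives, and the procedure was tested on simulated data. Log2 CPM used a prior count of 2. Same-numbered libraries deviated together (r over 0.1 in all 3 pairs, 0.311, 0.18 and 0.269 over 15718 genes) between SOX9-Halo_budding and SOX9-Halo_spheroid only, so a block within that line was added after seeing the data. Gene positions and lengths are from GENCODE M39, which holds 78168 of the gene identifiers. Ratios with 10 or fewer reads in 1 condition have exact (Clopper-Pearson) 95% intervals. Named genes are all members, Sox9, the 6 most abundant regulators and up to 6 called in both spheroid conditions, the 2 most abundant genes of each product and Notch list, and the 3 genes nearest in pattern to each member. Other genes are named where a count is small, chosen after their values were seen. The result of 1 tuft cell product is not reported here. The members and the lists were chosen with earlier results of these data known.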

Additional observations from a re-analysis of the deposited data

Results flagged for a closer look

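For 3 members the SOX9-Halo and SOX9-mEGFP lines differed in the change from budding organoid to spheroid, by the test of the difference itself (edgeR, adjusted p at most 0.01). On the log2 scale the change in the SOX9-Halo line minus that in the SOX9-mEGFP line was -8.09 for Atoh1, -5.97 for Neurog3 and -6.31 for Insm1. Atoh1 had 334.6, 244.3 and 340.0 normalized counts in the SOX9-mEGFP spheroids and 1, 1 and 0 reads in the SOX9-Halo spheroids, while the budding libraries of both lines had at least 260.5. Each of the 3 differences was called under every alternative setting and with any 1 of the 12 libraries of these 4 conditions left out. The spheroids of the 2 lines also differ in their second transgene and in time in culture, which cannot be told apart from the tag.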

How the results depend on the processing

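Of the 30 differences called between conditions or lines, 243 of 245 values under other settings and 188 of 198 with 1 library left out stayed called with the same sign. The lost calls, which were of Gfi1, Foxa1 and Foxa3, are given with them where 1 library was left out. Under other settings Gfi1 in SOX9-mEGFP_spheroid against Halo-NLS lost its call with library sizes alone (log2 -1.30, adjusted p = 0.0136) and with only the conditions compared (-1.61, 0.0202). The 0 members called in SOX9-mEGFP_budding against Halo-NLS became 2 with an adjusted p of at most 0.05 and no minimum fold change, 2 with no low-count filter, 1 with library sizes alone, 1 with a replicate block over all libraries and 1 with DESeq2, and ranged from 0 to 2 with 1 library left out. In SOX9-Halo_budding the 0 became 1 with no low-count filter and ranged from 0 to 1 with 1 library left out. In SOX9-mEGFP_spheroid against Halo-NLS the 4 calls ranged from 3 to 6 (6 with DESeq2). By the rule of r over 0.1 in all 3 pairs, the replicate numbers paired no other conditions. Single pairs of other conditions ranged from -0.219 (replicate 2 of Halo-NLS and SOX9-mEGFP_spheroid) to 0.697 (replicate 2 of Halo-NLS and SOX9-Halo_budding). The block over all libraries moved no other count by over 1.5 times. Library sizes alone, with no correction of composition, moved the median of all genes to between 0.27 and 0.31 (log2) in the comparisons with Halo-NLS. Of the lists against Halo-NLS, calls of lower regulators ranged over the settings from 13 to 18 in SOX9-mEGFP_spheroid and 18 to 22 in SOX9-Halo_spheroid, of lower goblet products from 2 to 4 and 11 to 13, of lower Paneth products from 7 to 9 and 8 to 10, and of lower enteroendocrine products from 14 to 18 and 16 to 18. Higher regulators ranged from 2 to 4 and 0 to 1, and lower tuft products from 0 to 3 in both.

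Differences that changed sign were all of members near 0 that were not called. With library sizes alone these were Insm1 in SOX9-mEGFP_budding (0.16), Foxa3 in SOX9-mEGFP_spheroid (0.16) and Foxa2 in SOX9-Halo_spheroid (0.16) against Halo-NLS, and Foxa1 (0.00) and Foxa2 (0.02) between the budding conditions. With the replicate block over all libraries Foxa2 changed sign between SOX9-mEGFP_spheroid and SOX9-mEGFP_budding (0.03) and between the budding conditions (0.04), and in the latter also with only the conditions compared (0.01). With 1 library left out, log2 values against Halo-NLS ranged in SOX9-mEGFP_budding from -0.43 to 0.05 for Insm1, -0.27 to 0.60 for Foxa2 and -0.70 to 0.09 for Foxa3. In SOX9-Halo_budding they ranged from -0.16 to 0.39 for Spdef, -0.39 to 0.40 for Insm1 and -0.20 to 0.58 for Foxa2. In SOX9-mEGFP_spheroid they ranged from -0.21 to 0.57 for Foxa2 and -0.38 to 0.41 for Foxa3, and in SOX9-Halo_spheroid from -0.44 to 0.34 for Foxa2. Between the budding conditions they ranged from -0.38 to 0.06 for Gfi1, -0.20 to 0.26 for Neurod1, -0.29 to 0.50 for Insm1, -0.22 to 0.24 for Foxa1 and -0.21 to 0.34 for Foxa2, and between SOX9-mEGFP_spheroid and SOX9-mEGFP_budding from -0.22 to 0.30 for Foxa2. The cause was not tested. Totals of 2 or fewer reads leave wide counting intervals on the size of the differences of Atoh1, Neurog3, Neurod1 and Insm1 in SOX9-Halo_spheroid.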
